A study of Mus musculus with 33 samples.

Results

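The libraries described here come from 3 kinds of mouse culture, and the members of the comparison are 9 of the 33 samples of the series. Fibroblasts (3 libraries) came from the tail tip and carried the Col2.3GFP transgene, that is, green fluorescent protein under a fragment of the type I collagen promoter that is active in osteoblasts. Induced osteoblasts, called iOB (3 libraries), were made from such fibroblasts with lentivirus carrying transcription factor genes. Virus stayed on for 24 hours, cells were replated on day 3, and a switch to osteogenic medium followed on day 5. Calvarial-OB (3 libraries) are osteoblasts differentiated from progenitor cells of the skull vault, and their titles mark them as a second dataset. The mean of iOB and calvarial-OB, with equal weight, was set against fibroblasts in 1 model over the 9 libraries. A gene was counted in the shared programme when its 6 osteoblast libraries lay all above or all below the 3 fibroblast libraries. Of 13438 genes tested, out of 17982 in the table, 2360 lay above (17.6%) and 2425 lay below (18.0%).

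Several limits belong to these groups. Both cultures were set against the same fibroblast libraries, so a trait of those libraries alone would appear in both comparisons. Likeness between the cultures in their change from fibroblasts is therefore not independent evidence. Virus, delivered factors, medium and time all separate iOB from fibroblasts and cannot be told apart. Anatomical origin, dataset, cell type and differentiation from progenitor cells separate calvarial-OB from fibroblasts and cannot be told apart either. Both osteoblast cultures thus differ from fibroblasts by a differentiation step as well. Strain, age and sex of the animals, the delivered factors, the day of harvest and the genotype of the calvarial cells are not given in the sources used here. The labels do not say whether replicates came from separate animals or dishes, so p-values measure the spread between these libraries, which may be technical. All values are from unsorted cultures, in which fewer cells of a type and less RNA per cell cannot be told apart.

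Osteoblasts are the mesenchymal cells that lay down bone. They secrete type I collagen and a set of acidic and vitamin K-dependent proteins, export phosphate-releasing enzymes that let mineral form on the collagen, and respond to parathyroid hormone, Wnt and bone morphogenetic protein ligands. The transcription factors Runx2 and Sp7 (osterix) are required for their formation. Cells that become embedded in the mineral turn into osteocytes. Fibroblasts also make type I collagen, together with a matrix rich in fibronectin, fibrillin and type V collagen.

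Total counts were 5646299 to 15023771 per library, and a gene's level is given as CPM, its count scaled to a common library total after TMM scaling, a correction for library composition. By correlation of log2 CPM, the least similar pair of replicates was in calvarial-OB, where replicate 1 had a lowest within-group value of 0.969. Without that library 2582 genes lay above and 2488 below, and 3741 genes were called higher and 3727 lower in the test described next. By chi-square of raw counts, Rn45s included, fibroblast replicates 1 and 3 differed most (70.9 per degree of freedom, against at most 43.1 in calvarial-OB). Leaving out fibroblast replicate 1 gave 2741 genes above and 2805 below, with 2997 called higher and 2963 lower. Of 5 lymphocyte, 9 granulocyte and 11 endothelial markers in the table, 1, 2 and 6 had enough counts to be tested, and Pecam1 and Vwf of endothelium did not. The 23 tested macrophage markers summed to 47.2 to 96.9 CPM in fibroblasts, 2548 to 4103 in iOB and 4147 to 7686 in calvarial-OB. Ribosomal RNA precursor (Rn45s) took 2.27%, 8.39% and 10.9% of counts in fibroblast replicates 1 to 3 and 5.09% to 5.77% of osteoblast counts. Leaving it out changed neither programme count.

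In a test of the mean of both cultures against fibroblasts, edgeR's quasi-likelihood test with Benjamini-Hochberg adjustment called 6930 genes (51.6%) at an adjusted p under 0.05. Of these, 3395 were higher (25.3%) and 3535 lower (26.3%), and 1831 of the former but 767 of the latter changed at least 2-fold. The split depended on scaling: with library size alone, which shifted the median gene by 0.131 on the log2 scale, 63.4% of called genes were higher, against 49% with TMM (4169 higher and 2403 lower), and 3004 genes lay above but 1468 below. When the 6 osteoblast libraries were treated as 1 group, so that the difference between the cultures counted as error, 2133 genes were called higher and 1684 lower. In that fit 20 of the called genes named here had no call, namely Cdh2, Cfd, Col2a1, Cxcl14, Hoxb9, Hoxb13, Hoxc12, Ift20, Inhbb, Ldha, Mki67, Ogn, Pgk1, Plat, Slc16a3, Slc20a1, Sparc, Tgfbr3, Thy1 and Tnc. The fit also moved changes printed here by over 1.5 times, to log2 values of 6.57 for Sp7, 6.89 for Dlx5, 7.29 for Ptprz1, 6.35 for Phex, 4.60 for Gdf10, 7.03 for Mfap4, -4.08 for Prg4, -2.06 for Slc16a3, 1.78 for Cxcl14 and -0.18 for Inhbb. The programme was lopsided in size as well. Genes above had a median log2 fold change of 1.501, with 949 at 4-fold or more and 431 at 16-fold or more, whereas genes below had a median of -0.65, with 116 at 4-fold or more and 19 at 16-fold or more. These fold changes use the values that chose the genes and are given as a description. Of the genes above, 54 had no counts in fibroblasts, and with these at their lower bounds the median was the same. Genes above took 8.88% to 10.1% of fibroblast counts, 20.02% to 20.41% of iOB counts and 23.6% to 29.5% of calvarial-OB counts, and genes below took 37.5% to 41.4%, 25.7% to 26.3% and 19.0% to 21.3%.

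**Figure D1:**
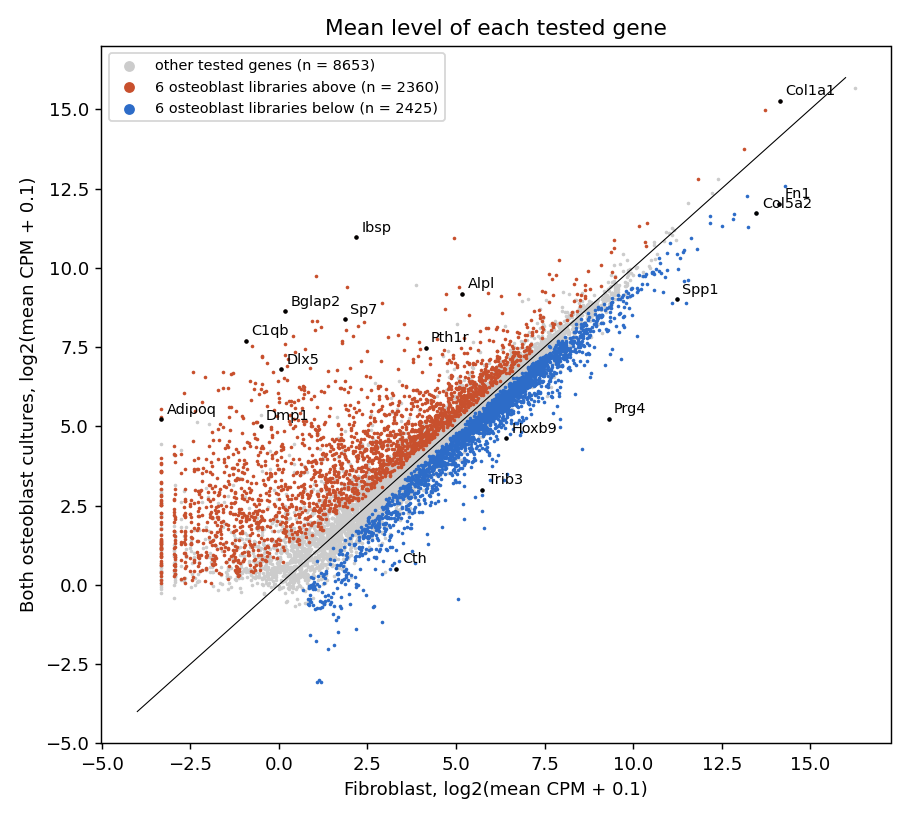
Mean level of each of the 13438 tested genes in fibroblasts (x axis) and in both osteoblast cultures (y axis), each as log2(CPM + 0.1), with a line at equal levels. The 2360 genes above spread far from the line, to Ibsp, Bglap2 and C1qb, while 570 of the 2425 genes below lie 2-fold or more from it.

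Most genes that encode proteins of the bone matrix were higher in both cultures. Of 20, 16 rose and 3 fell, with a median log2 fold change of 2.21 against -0.01 over all tested genes, and 14 lay above and 3 below. Bglap2, one of the near-identical genes for osteocalcin, the vitamin K-dependent protein of mineralized bone, stood at 0.471, 1.13 and 1.49 CPM in the fibroblast libraries, 426, 353 and 441 in iOB and 391, 453 and 317 in calvarial-OB. Both cultures covered 1 range, far from the fibroblast libraries, a log2 fold change of 8.56 ± 0.27. Its neighbour Bglap rose by 8.67 ± 0.37. A further copy, Bglap3, had no counts in fibroblasts, and its summed counts were 32 in iOB and 707 in calvarial-OB. The counting may have divided reads between these copies, so each single value is uncertain. Ibsp, bone sialoprotein, which binds hydroxyapatite, stood at 1.88, 2.12 and 9.21 CPM in the fibroblast libraries, 954, 1109.7 and 1195 in iOB and 2596, 3137 and 2946 in calvarial-OB. It rose by 8.56 ± 0.45, with fibroblast replicate 3 highest of its group and the calvarial-OB libraries all above the iOB libraries. Dmp1, an acidic phosphoprotein of osteocytes and late osteoblasts, rose by 5.71 ± 0.52, from 0.332 to 1.04 CPM in fibroblasts to 16.6 to 47.2 in the 6 osteoblast libraries. Leaving out fibroblast replicate 3 raised the values of Bglap and Ibsp to 9.78 and 9.81, and leaving out fibroblast replicate 1 raised that of Dmp1 to 6.41. Omd, osteomodulin, a keratan sulfate proteoglycan of bone, rose by 3.62 ± 0.20.

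The 3 matrix genes that fell were Spp1, Bgn and Tnc, the last of which, tenascin C, was named after its values were seen. Spp1 encodes osteopontin, a phosphoprotein of bone that many other cell types also secrete. It stood at 2705, 2284 and 2209 CPM in the fibroblast libraries, 403, 603 and 546 in iOB and 589.8, 432 and 527 in calvarial-OB, so both cultures were below fibroblasts in every library. The fall was 2.21 ± 0.13 on the log2 scale, and the cultures were 0.00 ± 0.16 apart (95% interval -0.35 to 0.35). Bgn, the proteoglycan biglycan, fell by 1.26 ± 0.11, and Tnc fell by 1.35 ± 0.15. Type I collagen, which fibroblasts already expressed, rose less than 3-fold. Col1a1 stood at 18865, 18453 and 17404 CPM in the fibroblast libraries, 32146, 26839 and 27000.4 in iOB and 61427, 56366 and 33133 in calvarial-OB, and rose by 1.06 ± 0.18; Col1a2 rose by 1.17 ± 0.12 and Sparc, osteonectin, by 0.56 ± 0.10.

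The promoters of Bglap and Spp1, which moved in opposite directions, both hold the core letters of the Runx site. Promoter windows of 250 bases before the start (RefSeq, GRCm38.p6) were found for 10067 of the tested genes, and the letters TGTGGT, read on both strands, occurred in 10.5% of them. They occurred in 4 of the 16 bone matrix genes that had a window (Bglap, Spp1, Mepe and Ogn) and in 2 of 12 genes of mineral deposition (Enpp1 and Slc20a1, both called lower, the latter in 3 of 17 alternatives). Of programme genes with a window, 11.6% of those above and 9.7% of those below held the letters, close to the 10.5% of all windows. Stretches of 80 bases are shown 5′ to 3′ on the strand of the gene, with the match in capitals, which reads ACCACA where it lies on the other strand. The first of the 2 Spp1 windows in the table was used.
Bglap (chr3:88384537-88384616, minus strand): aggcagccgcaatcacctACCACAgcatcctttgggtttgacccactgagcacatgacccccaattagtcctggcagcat
Spp1 (chr5:104434961-104435040, plus strand): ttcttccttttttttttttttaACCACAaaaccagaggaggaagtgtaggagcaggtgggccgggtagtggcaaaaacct
The match starts 132 bases before the start in Bglap and 128 in Spp1. A match is a string of letters and does not show binding.

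**Figure D2:**
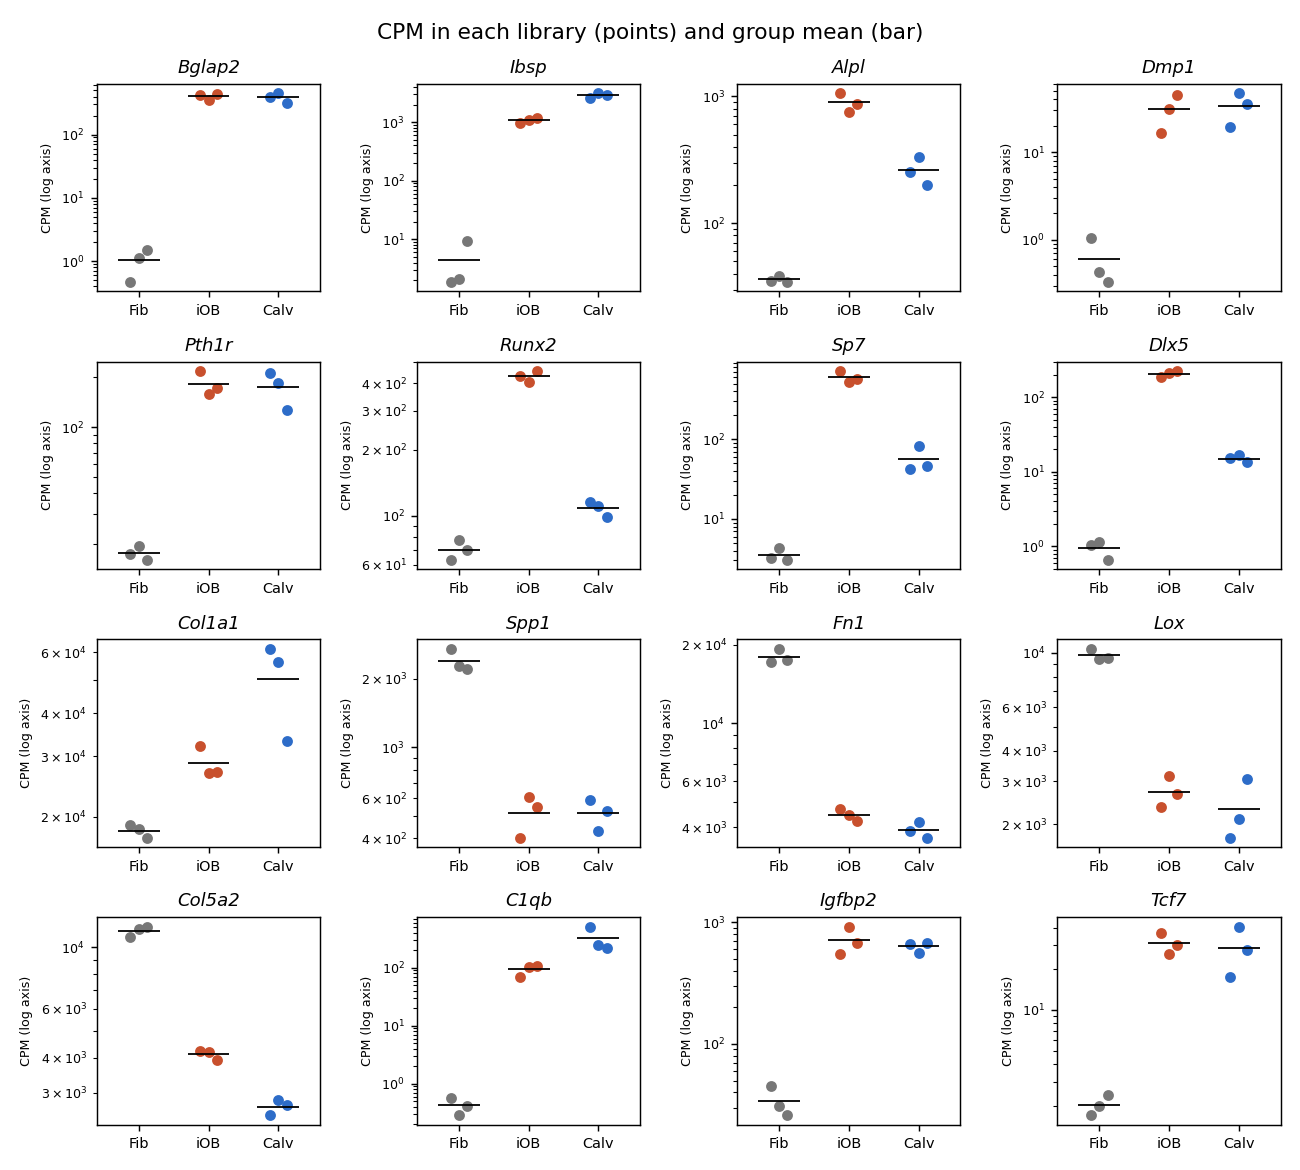
CPM of 16 genes in each of the 9 libraries (points, log axis, axes differ between panels) with the mean of each group as a bar. For Bglap2, Pth1r, Spp1, Igfbp2 and Tcf7 the iOB and calvarial-OB points share 1 range; for Runx2, Sp7 and Dlx5 the iOB points stand above the calvarial-OB points.

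Of 17 genes of mineral deposition, 12 rose and 2 fell, with a median log2 fold change of 3.75. Alpl, tissue-nonspecific alkaline phosphatase, which frees phosphate from pyrophosphate, stood at 35.3, 38.7 and 34.5 CPM in the fibroblast libraries, 1061, 759 and 873 in iOB and 255, 332 and 201 in calvarial-OB. The groups did not overlap, and the rise was 3.75 ± 0.18, with a difference between the cultures of 1.77 ± 0.18 in favour of iOB. Slc13a5, a citrate transporter, rose by 7.67 ± 0.35, from at most 1.16 CPM in fibroblasts to between 81.0 and 210.2 in the osteoblast cultures. Panx3, a channel of hypertrophic cartilage and osteoblasts, rose by 7.04 ± 0.34, Smpd3, neutral sphingomyelinase 2, by 4.75 ± 0.26, and Phex, an endopeptidase of mineralizing cells, by 5.63 ± 0.47. Without fibroblast replicate 3 the values were 8.63 for Slc13a5 and 7.04 for Phex. The 3 genes not called were Ank, Slc20a2 and Slc9a3r1; these and Enpp1 were named after their values were seen. Ank, which exports pyrophosphate, had a log2 fold change of 0.05 ± 0.11, and Enpp1, which makes pyrophosphate, an inhibitor of mineral growth, fell by 1.09 ± 0.18.

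Of 24 osteogenic transcription factors, 11 rose, 5 fell and 8 were not called. Between the cultures 9 were called higher in iOB, 11 higher in calvarial-OB and 4 neither. Over all tested genes 24.7% were higher and 24.1% lower in iOB. Runx2 stood at 63.2, 77.3 and 70.1 CPM in the fibroblast libraries, 433, 407 and 455 in iOB and 116, 111 and 99.0 in calvarial-OB, and rose by 1.63 ± 0.10. The log2 fold change was 2.62 in iOB and 0.63 in calvarial-OB, and no osteoblast library overlapped with fibroblasts. Sp7 stood at 3.203, 4.25 and 3.07 CPM in the fibroblast libraries, 722, 518 and 573 in iOB and 42.4, 82.1 and 46.1 in calvarial-OB, and rose by 5.75 ± 0.28. Dlx5, a homeobox factor of developing bone, stood at 1.04, 1.13 and 0.664 CPM in the fibroblast libraries, 185, 209.9 and 225 in iOB and 15.1, 16.5 and 13.5 in calvarial-OB, and rose by 5.91 ± 0.18. For both genes the 3 groups formed 3 separate steps, with iOB highest. Which transcripts came from the virus cannot be read from counts per gene, and the part of vector transcripts in the iOB values was not tested. Atf4, a factor of amino acid import and late osteoblast differentiation, was at 0.09 ± 0.13 on the log2 scale (edgeR's adjusted p = 0.61), and its sign changed without iOB replicate 1. Mef2c, needed in osteocytes for Sost expression, rose by 3.18 ± 0.20, and Alx4, a factor of skull development, by 1.85 ± 0.15. Fosl2, a member of the AP-1 family, fell by 1.00 ± 0.13.

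Of 21 hormone and membrane genes of osteoblasts, 16 rose and 3 fell. Pth1r, the receptor of parathyroid hormone, stood at 17.2, 19.4 and 16.01 CPM in the fibroblast libraries, 217, 158 and 171 in iOB and 210.2, 183 and 127 in calvarial-OB. It rose by 3.34 ± 0.19, and the cultures differed by 0.07 ± 0.18 (95% interval -0.31 to 0.46). Slc36a2, an amino acid transporter, rose by 6.10 ± 0.28, Kcnk1, a potassium channel, by 5.73 ± 0.28, and Cd200, an immunoregulatory surface protein, by 3.53 ± 0.24. Bmpr1b, a type I receptor of bone morphogenetic proteins, fell by 3.36 ± 0.25, from 14.2 ± 1.33 CPM in fibroblasts to 2.24 ± 0.765 in iOB and 0.759 ± 0.470 in calvarial-OB (SD, n = 3 each). Gja1 and Cdh2, the other members that fell, were named for that count.

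Of 13 osteocyte genes 8 rose and none fell, with 5 not called. Ptprz1, a receptor phosphatase, rose by 6.31 ± 0.46 (6.92 without fibroblast replicate 1), and was 3.73 ± 0.28 lower in iOB than in calvarial-OB. Mepe, a phosphoglycoprotein that affects mineralization, and Dkk1, a secreted Wnt inhibitor, had no counts in fibroblasts. Over the pooled osteoblast libraries they were at least 68.0-fold and 81.4-fold higher, against a floor of 3 counts over the fibroblast group. Most of those counts were in calvarial-OB, with 357 and 427 counts against 8 and 10 in iOB.

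Collagen chains changed in both directions. Of 28, 13 rose and 9 fell. Col11a2, a chain of type XI collagen of cartilage and bone, rose by 5.79 ± 0.26, and Col8a2 and Col8a1, the short-chain network collagens, rose by 3.90 ± 0.21 and 2.33 ± 0.14. Col13a1, a membrane collagen, had 3 counts in fibroblasts and 1265 in the osteoblast cultures, a ratio of 235.5 (95% interval 80.4 to 1143, counting error only). Col5a2, which is incorporated in type I fibrils and limits their diameter, stood at 10893, 11612 and 11867 CPM in the fibroblast libraries, 4247, 4185 and 3937 in iOB and 2482, 2814 and 2703 in calvarial-OB. It fell by 1.79 ± 0.08, and the 3 groups formed separate steps with calvarial-OB lowest. Col5a1 fell by 0.56 ± 0.11, Col12a1, which decorates fibrils, by 1.24 ± 0.10, Col2a1 of cartilage by 2.42 ± 0.23, and Col10a1 of hypertrophic cartilage by 3.16 ± 0.28.

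Of 22 enzymes and proteins that process collagen, 12 fell, 4 rose and 6 were not called (7 lower when the cultures were treated as 1 group). Lox, lysyl oxidase, which crosslinks collagen and elastin, stood at 10387, 9442 and 9497 CPM in the fibroblast libraries, 2352, 3154 and 2661 in iOB and 1769, 2099.8 and 3068 in calvarial-OB. It fell by 1.96 ± 0.15, with no overlap, and the cultures were 0.24 ± 0.18 apart (95% interval -0.16 to 0.63). The lysyl hydroxylases Plod1 and Plod2 fell by 1.25 ± 0.10 and 1.32 ± 0.11, the prolyl hydroxylase subunits P4ha1, P4ha2 and P4hb by 0.96 ± 0.09, 1.36 ± 0.13 and 0.82 ± 0.09. The 4 that rose were P4ha3, Pcolce, Adamts2 and Crtap, named for that count.

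Among 26 genes of fibronectin, elastic fibres and adhesion matrix, 12 fell and 6 rose. Fn1, fibronectin, stood at 17188, 19260.2 and 17383 CPM in the fibroblast libraries, 4713, 4432 and 4223 in iOB and 3859.6, 4187 and 3649 in calvarial-OB, and fell by 2.11 ± 0.09. Every osteoblast library was below every fibroblast library, and the cultures differed by 0.19 ± 0.11 (95% interval -0.04 to 0.43). Fbn1, fibrillin of the elastic microfibrils, fell by 1.96 ± 0.09, Fbln2, fibulin 2, by 2.63 ± 0.15, Ltbp2 by 1.98 ± 0.11 and Thbs1, thrombospondin, by 1.95 ± 0.10. Mfap4, a microfibril protein, rose by 5.96 ± 0.45 and was 4.03 ± 0.35 lower in iOB than in calvarial-OB. Of 26 proteases and inhibitors, 12 rose and 9 fell, beside 25.3% higher and 26.3% lower over all tested genes. Among chondrocyte markers 7 of 17 rose and 6 fell. The summed level of these markers was 1382.7 to 1617.7 CPM in fibroblasts, 664.4 to 863.8 in iOB and 906.2 to 1457.5 in calvarial-OB. Among tendon markers 5 of 8 rose (3 without fibroblast replicate 3, and 3 when the cultures were treated as 1 group). Fap, a serine protease used as a marker of activated fibroblasts, rose by 2.604 ± 0.18 and Adamts9 by 2.93 ± 0.22, while Adamts12 fell by 2.70 ± 0.12 and Plat, tissue plasminogen activator, by 1.497 ± 0.10. Fibroblast markers divided, with 9 of 18 lower and 6 higher. Thy1 had 218 ± 49.0 CPM in fibroblasts, 109.6 ± 3.75 in iOB and 262 ± 12.7 in calvarial-OB (SD, n = 3 each), so that its fall of 0.36 ± 0.12 in the mean (edgeR's adjusted p = 0.029) was lost in 7 of 17 alternatives and joined log2 fold changes of -0.99 in iOB and 0.27 in calvarial-OB.

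Among signalling genes, of 35 Wnt genes 18 rose and 6 fell. Wnt10b, a ligand that favours bone formation, rose by 2.36 ± 0.24 and Lrp4, a receptor that binds sclerostin, by 2.32 ± 0.16, and both were higher in iOB than in calvarial-OB, by 2.45 ± 0.23 and 2.36 ± 0.17. Tcf7, a transcription factor of the pathway that is also its target, stood at 1.70, 1.98 and 2.41 CPM in the fibroblast libraries, 36.6, 25.6 and 29.6 in iOB and 17.3, 40.6 and 27.5 in calvarial-OB, and rose by 3.84 ± 0.30. No difference between the cultures was called for it (0.10 ± 0.25, 95% interval -0.44 to 0.65). The inhibitors Wif1 and Nkd2 rose too, by 3.36 ± 0.23 and 1.31 ± 0.12.

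Of 34 genes of bone morphogenetic protein and TGF-beta signalling 16 rose and 12 fell (4 fell when the cultures were treated as 1 group). The ligands Gdf10 and Bmp3 rose by 3.99 ± 0.13 and 4.23 ± 0.23, the pseudoreceptor Bambi by 2.48 ± 0.13, and follistatin (Fst), which binds activins, by 2.04 ± 0.13. Tgfbr3, betaglycan, fell by 1.21 ± 0.10. In the list of IGF, FGF, Notch and PDGF genes 21 of 35 rose and 9 fell. Igfbp2, a binding protein of insulin-like growth factors, stood at 44.8, 30.9 and 25.9 CPM in the fibroblast libraries, 548, 915 and 678 in iOB and 662, 557 and 679 in calvarial-OB, and rose by 4.31 ± 0.23, with both cultures above every fibroblast library. Igf1 rose by 2.90 ± 0.18 and was 1.72 ± 0.18 lower in iOB than in calvarial-OB, while the clearance receptor Igf2r fell by 1.25 ± 0.09 and Igfbp7 by 1.13 ± 0.08.

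Markers of macrophages and adipocytes rose in the same cultures. All 23 tested macrophage markers rose and all lay above, with a median log2 fold change of 6.00. C1qb, of complement component C1q, stood at 0.565, 0.283 and 0.415 CPM in the fibroblast libraries, 67.9, 104 and 109 in iOB and 509.6, 242 and 217 in calvarial-OB, and rose by 8.59 ± 0.47. Csf1r, the receptor of macrophage colony-stimulating factor, rose by 4.89 ± 0.31, Ctss, a lysosomal protease, by 7.32 ± 0.33, and Lyz2, lysozyme, by 6.00 ± 0.36. Clec4n, a C-type lectin, had no counts in fibroblasts and 482 in iOB and 2270 in calvarial-OB, at least 512-fold higher over the pooled osteoblast libraries. Of 18 adipocyte markers 16 rose (11 when the cultures were treated as 1 group), and 17 were higher in calvarial-OB than in iOB. Their median log2 fold change was 1.60 in iOB and 3.78 in calvarial-OB. The summed level of these markers was 594 to 691 CPM in fibroblasts, 879 to 1001 in iOB and 2891 to 4371 in calvarial-OB. Adipoq, adiponectin, had no counts in fibroblasts and 278 in iOB and 2108 in calvarial-OB, at least 444-fold higher. Of 8 osteoclast genes 5 rose, among them Ctsk, cathepsin K, by 0.80 ± 0.12, and Mmp9, a gelatinase, by 2.10 ± 0.46 (3.07 without fibroblast replicate 1).

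Some further lists hold genes that macrophages and other cell types share, and the part of the macrophage markers in their values was not tested. For antigen presentation, 13 of 14 genes rose; H2-D1, a class I heavy chain, rose by 2.67 ± 0.19 and B2m, the class I light chain, by 1.89 ± 0.14. Of 24 lysosome genes 13 rose and 1 fell; Ctsb rose by 1.35 ± 0.18, Ctsd by 1.14 ± 0.14 and Hexa by 1.43 ± 0.14. Of 25 interferon response genes 18 rose (7 when the cultures were treated as 1 group) but 6 lay above, 22 were higher in iOB than in calvarial-OB, and the median log2 fold change was 2.21 in iOB and 0.26 in calvarial-OB. Oas2, an antiviral synthetase, lay above, with a rise of 6.28 ± 0.63 (5.61 without fibroblast replicate 3). Of 16 immediate early genes 11 rose and 2 fell; Egr3 rose by 2.91 ± 0.31 and Fosl1 fell by 1.46 ± 0.27. Of 22 cholesterol synthesis genes 16 rose and none fell, but 8 lay above. The rises were each less than 3-fold, among them that of Insig1 by 1.47 ± 0.11. Those called higher were 9 without fibroblast replicate 1, 10 without fibroblast replicate 2 and 7 when the cultures were treated as 1 group. The tumour necrosis factor gene Tnf stood at 0.188, 0.425 and 0.0830 CPM in the fibroblast libraries, 43.1, 75.5 and 55.3 in iOB and 375, 49.0 and 33.5 in calvarial-OB; calvarial-OB replicate 1 was far above the other calvarial-OB libraries, and its rise of 8.76 ± 1.25 was 7.83 without that library and 9.36 without fibroblast replicate 2.

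**Figure D3:**
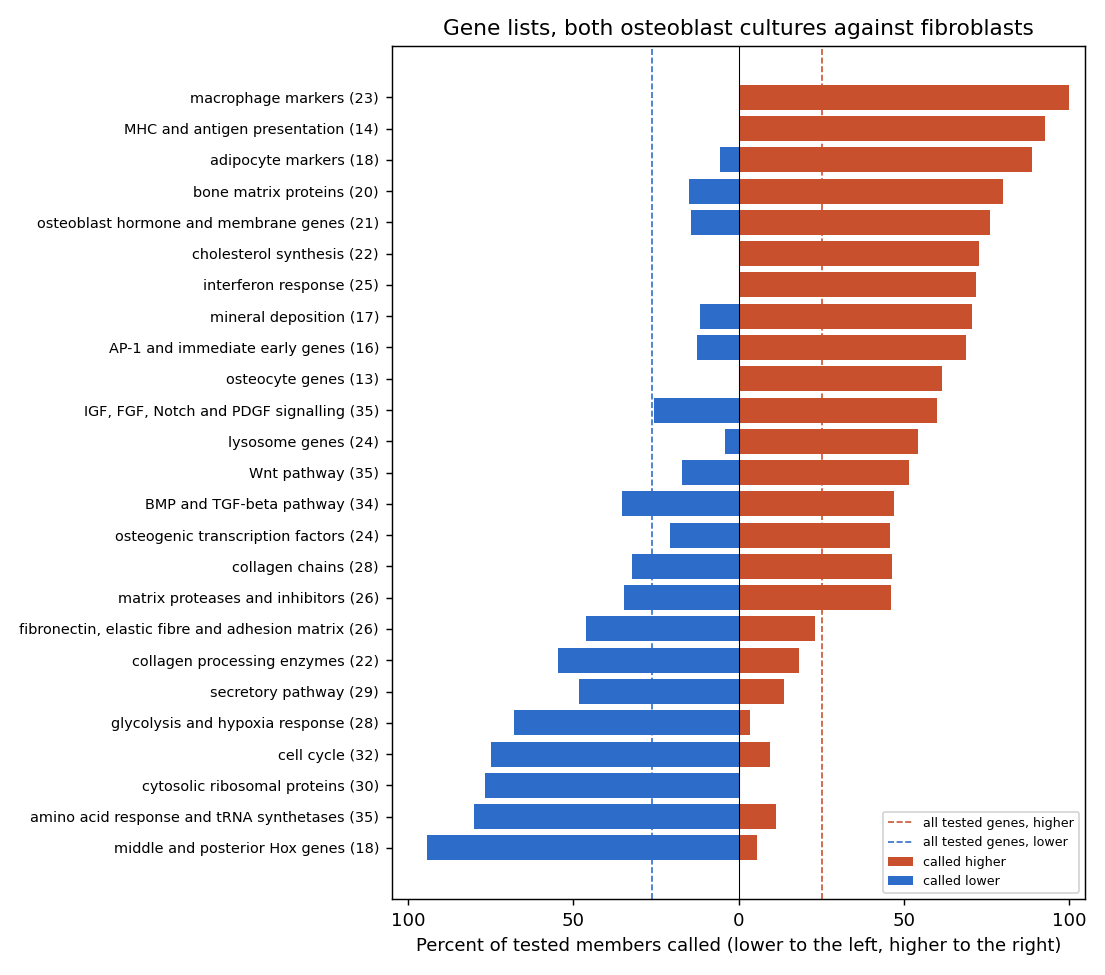
Percent of tested members called higher (right) or lower (left) in 25 gene lists, with the number tested in parentheses and the percent over all tested genes as dashed lines (25.3% higher, 26.3% lower). Macrophage, antigen presentation, adipocyte, bone matrix, and osteoblast hormone and membrane lists reach furthest to the right. Hox, amino acid response, ribosomal and cell cycle lists reach furthest to the left.

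Genes induced by amino acid shortage were mostly lower in both cultures. Of 35 tested, 28 fell, 4 rose and 3 were not called; 26 lay below and 4 above, and the median log2 fold change was -1.04. Over the alternatives run, 26 to 30 of them were called lower and 3 or 4 higher. Between the cultures 13 were higher in iOB, 4 were higher in calvarial-OB and 18 were not called, with medians of -0.77 in iOB and -1.01 in calvarial-OB. These genes are induced through the factor ATF4 when amino acids are scarce or the endoplasmic reticulum is stressed, and include enzymes of asparagine, serine and proline synthesis, amino acid transporters and tRNA synthetases. Trib3, a pseudokinase of this response, stood at 43.4, 60.8 and 56.4 CPM in the fibroblast libraries, 13.01, 9.17 and 10.5 in iOB and 7.27, 5.03 and 2.47 in calvarial-OB, and fell by 2.91 ± 0.22. Cth, cystathionine gamma-lyase, which makes cysteine, stood at 9.42, 9.35 and 10.9 CPM in the fibroblast libraries, 1.81, 1.49 and 1.80 in iOB and 0.848, 1.23 and 0.781 in calvarial-OB, and fell by 2.97 ± 0.19. In both genes every osteoblast library was below every fibroblast library, and calvarial-OB was the lower culture. Sesn2, a leucine sensor, fell by 1.29 ± 0.09, and the synthetases Cars and Lars by 1.11 ± 0.09 and 1.15 ± 0.09. The 4 genes that rose were Atf3, Slc1a5, Vldlr and Nupr1. Atf3, which is also an immediate early gene, stood at 4.05, 5.66 and 4.90 CPM in the fibroblast libraries, 91.2, 106 and 92.8 in iOB and 426, 39.3 and 52.1 in calvarial-OB, and rose by 4.74 ± 0.80, or by 3.81 without calvarial-OB replicate 1, the highest library.

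The composite CCAAT-ATF element to which ATF4 binds has the letters TGATGNAA, and 10 of the 27 amino acid response genes with a promoter window held them on 1 strand or the other (37.0%), against 2.0% of all windows. Of these 10 genes, named for their match after values were seen, 8 fell and 2 rose. They were Asns, Chac1, Atf3, Slc7a11, Pck2, Pycr1, Nupr1, Aars, Gars and Tars. Stretches of 80 bases show 5 that fell, followed by the 2 that rose, with the match in capitals, written as its reverse complement where it lies on the other strand.
Asns (chr6:7693210-7693289, minus strand): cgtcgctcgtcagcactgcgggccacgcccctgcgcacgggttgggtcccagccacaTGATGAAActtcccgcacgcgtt
Gars (chr6:55037921-55038000, plus strand): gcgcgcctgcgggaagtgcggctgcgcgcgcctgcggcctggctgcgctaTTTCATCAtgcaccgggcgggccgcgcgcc
Tars (chr15:11399659-11399738, minus strand): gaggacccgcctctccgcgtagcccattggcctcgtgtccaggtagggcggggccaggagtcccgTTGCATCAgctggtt
Slc7a11 (chr3:50443624-50443703, minus strand): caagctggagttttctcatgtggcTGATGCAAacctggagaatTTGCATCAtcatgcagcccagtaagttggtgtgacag
Aars (chr8:111033702-111033781, plus strand): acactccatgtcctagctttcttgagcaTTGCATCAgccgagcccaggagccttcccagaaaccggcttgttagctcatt
Atf3 (chr1:191183394-191183473, minus strand): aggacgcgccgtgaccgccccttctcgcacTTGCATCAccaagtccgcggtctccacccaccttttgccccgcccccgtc
Nupr1 (chr7:126625531-126625610, minus strand): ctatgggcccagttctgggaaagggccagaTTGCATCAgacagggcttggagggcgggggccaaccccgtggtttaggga
Slc7a11, the cystine transporter, holds 2 matches on opposite strands, and fell by 1.79 ± 0.28. Asns, asparagine synthetase, fell by 1.41 ± 0.11, the synthetases Gars, Tars and Aars by 0.69 ± 0.11, 0.67 ± 0.12 and 1.19 ± 0.11, and the stress protein gene Nupr1 rose by 1.21 ± 0.16. The element is therefore in genes of either direction. Of programme genes with a window, 2.3% of those above and 2.0% of those below held it, close to the 2.0% of all windows. Other letters were searched in the same windows. The core of the interferon-stimulated response element was in 10 of 19 interferon response genes (2.5% of all windows). TTTCGCGC, an E2F site, was in 3 and TTTGAA, a cell cycle homology region, in 8 of 26 cell cycle genes (0.5% and 10.2% of all windows). TCACNCCAC, a sterol element, was in 1 of 15 cholesterol genes (1.0% of all windows). None of these letter strings contains another.

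**Figure D4:**
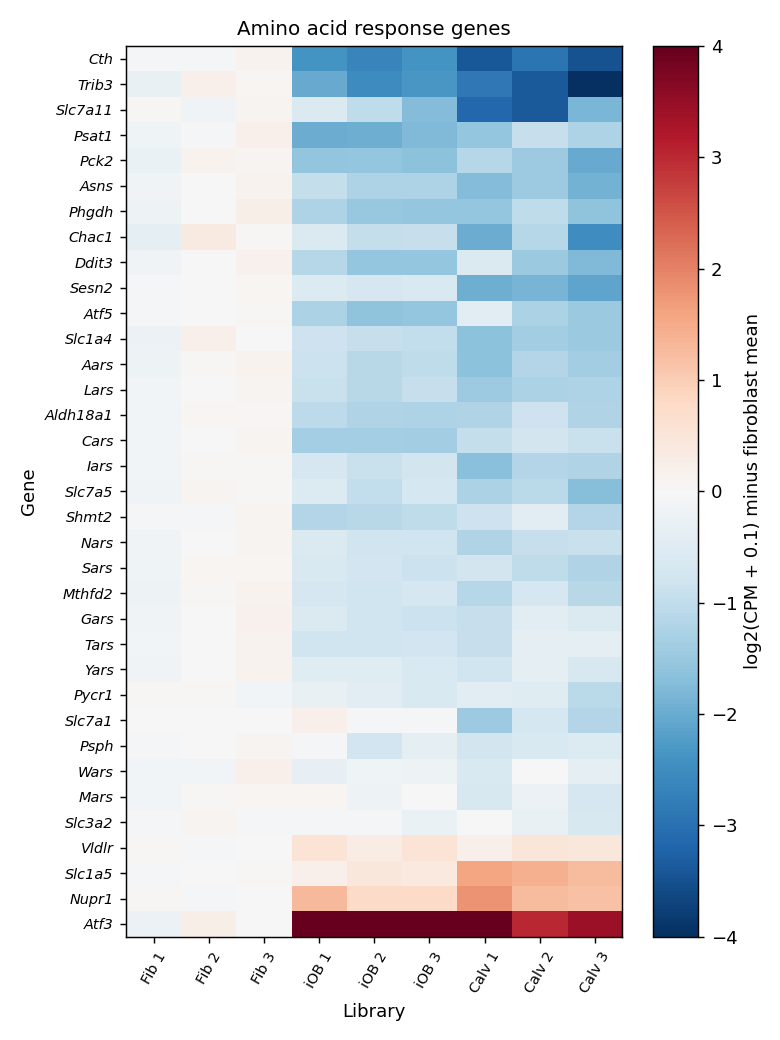
Level of the 35 amino acid response genes (rows, ordered by log2 fold change) in the 9 libraries (columns), as log2(CPM + 0.1) minus the fibroblast mean, with the colour scale ending at -4 and 4. Most of the 28 genes that fell are blue in all osteoblast libraries, Slc7a1 and Psph stay near 0 in iOB replicate 1, and Atf3 at the foot is the darkest red.

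Of 32 cell cycle genes 24 fell (4 when the cultures were treated as 1 group) but 9 lay below, and 28 were higher in calvarial-OB than in iOB. Mki67, the proliferation marker, stood at 160.3, 203 and 237 CPM in the fibroblast libraries, 34.3, 52.5 and 43.2 in iOB and 107, 156 and 151 in calvarial-OB, and fell by 1.37 ± 0.16; all osteoblast libraries were below the fibroblast libraries, the iOB libraries by far more. Ccnd1, cyclin D1, rose by 1.72 ± 0.11. Of 28 glycolysis and hypoxia genes 19 fell and 1 rose (7 and 1 when the cultures were treated as 1 group), with 13 below. Between the cultures 20 were higher in calvarial-OB, and the median log2 fold change was -1.23 in iOB and -0.43 in calvarial-OB. Pgk1 fell by 1.48 ± 0.08, Ldha by 1.23 ± 0.08 and Ero1l by 1.27 ± 0.11. Of 30 ribosomal protein genes 23 fell, but the median log2 fold change was -0.94 in iOB and 0.12 in calvarial-OB, all 30 were higher in calvarial-OB. Of these 30, 15 were called lower without fibroblast replicate 3, 15 with library size alone and 2 when the cultures were treated as 1 group. Of 29 genes of the secretory pathway 14 fell and 4 rose, of 18 contractile genes 7 rose and 4 fell, and of 30 respiratory chain genes 7 rose and 1 fell. Over all tested genes 25.3% were called higher and 26.3% lower. The 7 of the respiratory chain, a share close to the 25.3% of all genes, became 4 without fibroblast replicate 1 or 2, 2 when the cultures were treated as 1 group and 12 with library size alone.

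Of 18 middle and posterior Hox genes 17 were called lower in the mean, whereas 6 lay below in all osteoblast libraries and none was called lower when the cultures were treated as 1 group. Their median log2 fold change was -0.25 in iOB and -8.32 in calvarial-OB, and 17 were higher in iOB than in calvarial-OB. The counts that follow are sums over 3 libraries, not scaled for library totals, so they do not give the change in iOB. Hoxb9 had 2521 counts in fibroblasts, 1049 in iOB and 1 in calvarial-OB, and Hoxb13 had 1885, 673 and 2. Hoxc12 had 597 counts in fibroblasts, 421 in iOB and none in calvarial-OB, which was at least 213-fold lower there. Hox genes mark position along the body axis.

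The cultures were also set against each other within the shared programme. The rule used the same 6 libraries and leaves out genes whose cultures lie on opposite sides of fibroblasts, so these shares are a description. Among genes above, 1244 (52.7%) showed no called difference between the cultures, 363 (15.4%) were higher in iOB and 753 (31.9%) higher in calvarial-OB. Over all tested genes 24.7% were higher and 24.1% lower in iOB, a total near that of the genes above, among which calls in favour of calvarial-OB were the more frequent. Among genes below, 1402 (57.8%) showed no called difference, 858 (35.4%) were higher in iOB and 165 (6.8%) higher in calvarial-OB. In both directions most called differences were ones in which calvarial-OB lay further from fibroblasts. For 1152 genes above and 1848 below the 95% interval of the difference lay within 2-fold in either direction.

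**Figure D5:**
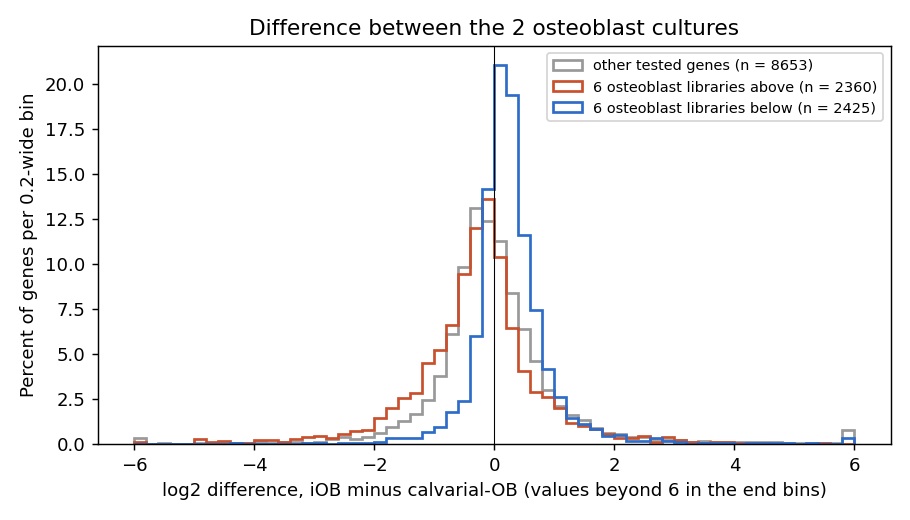
Distribution of the log2 difference between iOB and calvarial-OB for the 2360 genes above, the 2425 genes below and the 8653 other tested genes, as percent of genes per bin. The curve of the genes above leans to the left of 0 (higher in calvarial-OB) and that of the genes below to the right (higher in iOB).

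Some strongly changed genes were chosen for closely matched levels, so their intervals are a description. Dpep1, a membrane dipeptidase, stood at 21.2, 14.3 and 11.3 CPM in the fibroblast libraries, 184, 175 and 172 in iOB and 182, 164 and 172 in calvarial-OB, and rose by 3.49 ± 0.18, with the cultures 0.04 ± 0.16 apart (95% interval -0.32 to 0.40). Mertk, a receptor for dying cells on phagocytes, and Mpeg1, a pore-forming protein of macrophages, rose by 4.54 ± 0.22 and 6.008 ± 0.38. On the lower side Igsf10, an immunoglobulin superfamily gene of mesenchyme, stood at 628, 914 and 875 CPM in the fibroblast libraries, 100.1, 178 and 134 in iOB and 145, 144 and 131 in calvarial-OB, and fell by 2.54 ± 0.16. Its cultures were -0.02 ± 0.19 apart (95% interval -0.44 to 0.40). Ptx3, a pentraxin that fibroblasts secrete, fell by 2.27 ± 0.22, and Lgr4, a receptor of R-spondins, by 2.21 ± 0.11. Where no difference was called, equal levels were not shown, and the intervals give the range that the data allow.

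Other members of the programme, chosen for their difference between the cultures, were on the same side of fibroblasts by very different amounts. Slc26a7, an anion transporter, stood at 0.283, 0.142 and 0.415 CPM in the fibroblast libraries, 113, 83.4 and 86.9 in iOB and 2.30, 1.96 and 2.08 in calvarial-OB, so that calvarial-OB was within a few CPM of fibroblasts and iOB far above both, a difference of 5.48 ± 0.19. Ngef and Gldn were also higher in iOB, by 3.85 ± 0.25 and 3.81 ± 0.14, as was Lifr, the receptor of leukaemia inhibitory factor, by 2.89 ± 0.19. Igf2, a fetal growth factor, stood at 4.80, 2.97 and 3.07 CPM in the fibroblast libraries, 16.5, 17.9 and 15.9 in iOB and 539.5, 522 and 479 in calvarial-OB, which made it 4.93 ± 0.15 lower in iOB on the log2 scale. Cfd, adipsin, was lower in iOB by 6.16 ± 0.53, Hp, haptoglobin, by 4.25 ± 0.31, Fcrls by 4.81 ± 0.32, F13a1 by 4.59 ± 0.35 and Col22a1 by 3.72 ± 0.26. Among genes below, Prg4, lubricin of joint surfaces, fell by 4.73 ± 0.28 and was higher in iOB than in calvarial-OB by 2.98 ± 0.37, and Slc16a3, a lactate exporter, fell by 3.34 ± 0.27 and was lower in iOB by 4.37 ± 0.40.

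Outside the programme, 501 genes had all iOB libraries above and all calvarial-OB libraries below fibroblasts, and 351 had the reverse, so that their mean hides 2 opposite changes. F5, coagulation factor V, stood at 9.33, 9.35 and 7.72 CPM in the fibroblast libraries, 144, 96.1 and 113 in iOB and 0.121, 0.245 and 0.521 in calvarial-OB, and its mean change on the log2 scale was -0.44 ± 0.24 (edgeR's adjusted p = 0.15). Inhbb, an activin subunit, stood at 102, 90.2 and 83.0 CPM in the fibroblast libraries, 142, 153 and 146 in iOB and 13.4, 19.6 and 16.01 in calvarial-OB; it was called lower in the mean, by 0.91 ± 0.11, although every iOB library was above every fibroblast library. Cxcl14, a chemokine, stood at 101, 79.2 and 69.9 CPM in the fibroblast libraries, 691, 457 and 468 in iOB and 32.2, 39.7 and 26.6 in calvarial-OB, and was called higher in the mean, by 0.67 ± 0.17. In the reverse direction were Ndufa4l2, a hypoxia-induced mitochondrial protein, at 33.4, 25.1 and 19.3 CPM in the fibroblast libraries, 4.23, 3.78 and 3.11 in iOB and 197, 127 and 88.0 in calvarial-OB, and Tnmd, tenomodulin, a tendon marker, at 114, 83.0 and 67.0 CPM in the fibroblast libraries, 33.4, 44.7 and 35.2 in iOB and 168, 134 and 194 in calvarial-OB. Their mean log2 fold changes were -0.20 ± 0.26 and -0.15 ± 0.17 and were not called.

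At the edge of the rule, membership turned on very small gaps. Yipf1 lay above with a lowest osteoblast library of 30.392 CPM and a highest fibroblast library of 30.366, and Tada3 lay below with a highest osteoblast library of 29.286 and a lowest fibroblast library of 29.287. Just outside were Ift20, with 37.96 against 37.967, and Gng11, with 22.555 against 22.567. Of the genes above 2311 were also called higher and 49 were not; of those below 2322 were called lower and 103 were not. A further 1084 genes were called higher and 1213 lower although a library overlapped.

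The authors' deposited table of GFP-positive cells sorted from iOB against fibroblasts covers the same genes after a sort for an active collagen promoter; the fibroblast libraries behind it are not given in the sources used here, so values are set side by side. In that table Bglap2 had a log2 fold change of 10.94, Ibsp of 10.19, Alpl of 5.54, Pth1r of 5.70 and Col1a1 of 3.44, against 8.59, 7.85, 4.63, 3.38 and 0.65 in unsorted iOB in the fit described here. Col5a2 (-1.14), Lox (-2.41), Fbn1 (-3.99) and Fn1 (-1.32) were negative in the authors' deposited table too. Spp1 was at 0.47 in the authors' deposited table (their adjusted p = 0.26), against -2.21 in unsorted iOB. Macrophage markers had lower values in the authors' deposited table than in unsorted iOB: C1qb 4.62 against 7.70, Ctss 3.76 against 6.68 and Csf1r 2.94 against 4.66, with no adjusted p listed there. For the amino acid response, in which Psat1 and Asns were named after their values were seen, the authors' deposited table gives -1.14 for Trib3, -1.20 for Psat1 and -0.06 for Asns (their adjusted p = 0.83), against -2.30, -1.91 and -1.14 in unsorted iOB.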

How the data were processed

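Polyadenylated RNA of 9 libraries was sequenced, per the labels' protocols. The authors deposited raw counts per gene symbol; the tool that counted, its annotation and strand setting are not given in the sources used here, and mm9, STAR 2.4.2a, DESeq2, Bowtie2 and R 3.2.2 stand in the submitters' processing notes without roles. The OB columns were read as the calvarial-OB samples, which have no other column. The authors' deposited table of GFP-positive cells holds a mean signal (counts divided by size factors), log2 fold changes, a score (the test statistic) and p-values, per the file headers. Other samples and files, methylation among them, were not used here.

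Counts were filtered (filterByExpr), scaled by TMM and fitted with 1 mean per group by edgeR 4.0.16 quasi-likelihood in R 4.3.3, and p-values were adjusted over the 13438 tested genes; errors given with ± are standard errors of log2 fold changes unless named SD. Gene lists are described by counts and medians, with no set test. Counts in every list stand beside 25.3% called higher and 26.3% lower over all tested genes. Between the cultures these shares were 24.7% higher and 24.1% lower in iOB. Non-overlap was read in TMM-scaled CPM. Alternatives were upper-quartile and library-size scaling, other filters, DESeq2 1.42.0, a replicate block, 1 osteoblast group, no Rn45s and each library left out. Named genes were the largest changes by size, level and likeness between the cultures, plus leading members of each list; others were chosen after their values were seen. The members and lists were chosen with earlier results of these data known. Same-numbered replicates deviated together with correlations of -0.165 to 0.159, so the numbers were not taken as pairs. Total counts of 5646299 to 15023771 per library set the precision for low genes, and counting intervals and floors (3 counts over a group) cover counting error only.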

Additional observations from a re-analysis of the deposited data

Results flagged for a closer look

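Genes of the shared programme whose level differed between the cultures numbered 1221 higher in iOB and 918 lower in iOB (edgeR's quasi-likelihood test of the difference itself, adjusted over all tested genes). Over all 13438 tested genes, 24.7% were called higher and 24.1% lower in iOB. The 1221 were 363 genes above fibroblasts and 858 below, and the 918 were 753 above and 165 below. The following genes were among these programme genes, or had opposite changes in the cultures, and all values are log2 differences of iOB minus calvarial-OB. Regulators and membrane genes higher in iOB were Slc26a7 (5.48), Ngef (3.85), Gldn (3.81), Dlx5 (3.78), Sp7 (3.41) and Lifr (2.89). Prg4 was higher in iOB by 2.98, with both cultures below fibroblasts. Among the genes lower in iOB were Cfd (-6.16), Igf2 (-4.93), Fcrls (-4.81), F13a1 (-4.59), Hp (-4.25), Mfap4 (-4.03) and Col22a1 (-3.72). Slc16a3 (-4.37), Col2a1 (-2.42), Ldha (-1.82) and Mki67 (-1.66) were below fibroblasts in both and lower still in iOB. F5 (8.37), Cxcl14 (4.04) and Inhbb (3.17) were above fibroblasts in iOB and below them in calvarial-OB, and Ndufa4l2 (-5.19) and Tnmd (-2.13) were the reverse. Single libraries within groups of 3 were not tested as outlying values, and the counts with each library left out are given with the processing alternatives. The part of the dataset and of the macrophage and adipocyte markers that differ between the cultures was not tested.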

How the results depend on the processing

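The counts of called genes stayed within 1.5 times of the values reported under every alternative except those named here. With 1 osteoblast group of 6 libraries, 2133 genes were called higher and 1684 lower, because the difference between the cultures then enters the error. With scaling by library size alone 1468 genes lay below and 3004 above. DESeq2 called 3560 higher and 3249 lower. A replicate block gave 3287 higher and 3421 lower, 1177 programme genes higher in iOB and 865 lower, and among the genes named its lost call was that of Slc20a1. Leaving out 1 library gave 2917 to 3756 genes called higher, 2739 to 3727 lower, 2503 to 2789 above, 2451 to 2805 below, 1051 to 1426 programme genes higher in iOB and 799 to 1044 lower. The sign changed, with no call, when 1 library was left out, over ranges of -0.042 to 0.17 for Ank (lowest without fibroblast replicate 1), -0.024 to 0.16 for Atf4 (iOB replicate 1), -0.0039 to 0.18 for Slc9a3r1 (calvarial-OB replicate 1), -0.36 to 0.032 for Ndufa4l2 and -0.30 to 0.076 for Tnmd (both highest without fibroblast replicate 1). With 1 osteoblast group it changed for F5 (2.74), Ndufa4l2 (1.45) and Tnmd (0.21), whose cultures moved in opposite directions, and the cause was not tested. Library depth limits genes with few counts, among them Mepe and Dkk1 in iOB.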
